A study of Mus musculus with 6 samples.

Results

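Tbx18, Tbx20, Tcf21 and Wt1 are 4 transcription factor genes known from the epicardium, the cell layer on the surface of the heart, and from the cells that descend from it. They were chosen by name from the 31053 genes of the count tables, and were followed through 6 cell classes, each gated on 1 marker or marker pair: Kcnj8 and Higd1b for pericytes, Myh11 for smooth muscle, Col1a1 for fibroblasts, Cdh5 for endothelium, Msln for mesothelium and epicardium, and Ptprc for leukocytes. All 4 genes were in the tables and none was filtered out. The question was which sorted classes still held UMIs of Tbx18, the gene whose locus drives the label in these mice.

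The cells came from mice carrying the Tbx18CreER/+ and Rosa26tdT/+ alleles in every group, sham groups included. In such mice tamoxifen lets the Cre recombinase made from the Tbx18 locus switch on the red protein tdTomato for good in the cell and its descendants. Every group received tamoxifen by intraperitoneal injection for 4 days, followed by a washout, and cells were sorted for tdTomato. The mice carried CreER on 1 Tbx18 allele, so Tbx18 is measured in cells with that altered locus throughout. By design, a tdTomato-positive cell made Cre at the time of tamoxifen or descends from a cell that did. Whether every sorted cell carried tdTomato was not tested here. The 3 heart groups were sham surgery (ventricles), the infarct area of the left ventricle after ligation of the left anterior descending artery (LAD), and the remaining peri-infarct tissue without the atria. The 3 brain groups were sham, the necrotic infarct core after photothrombotic (PT) stroke, and the peri-infarct area, from dissected cortical tissue. Each group was 1 droplet library of 3′ ends (10x Genomics, 3′ version 3 chemistry). The age of the animals, the time after injury and the number of animals per library are not given in the sources used here.

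Tbx18 and Tbx20 belong to the T-box family, whose members bind DNA through a shared domain and act as repressors or activators. Tbx18 is a repressor expressed in the embryonic epicardium and, in adults, in pericytes and vascular smooth muscle. Tbx20 is required for heart muscle and valve development, Tcf21 is a basic helix-loop-helix factor needed for cardiac fibroblasts to form from epicardial cells, and Wt1 is a zinc finger factor that marks the epicardium and is also made by some endothelial cells. In the brain, pericytes and smooth muscle sit on the walls of small vessels, and fibroblasts lie in the meninges and around larger vessels.

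In the mm10 build with GENCODE vM21 models, Tbx18 (ENSMUSG00000032419) lies on chromosome 9 from 87702800 to 87731260 on the minus strand, and Tbx20 (ENSMUSG00000031965) on the same chromosome from 24718138 to 24774303, also on the minus strand. Tcf21 (ENSMUSG00000045680) lies on chromosome 10 from 22817281 to 22820174 on the minus strand, and Wt1 (ENSMUSG00000016458) on chromosome 2 from 105126529 to 105173616 on the plus strand. The antisense gene Gm10824 covers 2894 bases of Tcf21 on the other strand. It was counted separately, with 68, 225 and 176 UMIs in the sham, infarct and peri-infarct hearts and 0 in the brain libraries. D030062O11Rik overlaps 1976 bases of Tbx18 on the other strand and was not in the count tables. The strand setting of the counting is not given in the sources used here, so reads of these pairs may not be fully separated.

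The windows from 250 bases before to 50 bases after the start give the proximal sequence of each gene. They are shown because the 4 genes peaked in 2 gated classes of the heart (Tbx18 and Wt1 in mesothelial-like, Tbx20 and Tcf21 in fibroblast-like cells). RefSeq sequences on GRCm38.p6 matched 3 of the 4 genes by symbol; Wt1 is named only. Capitals mark the E-box, CANNTG on either strand, the kind of site that basic helix-loop-helix factors such as Tcf21 bind. The Tbx18 window is chr9:87731211-87731510, the Tbx20 window chr9:24774254-24774553 and the Tcf21 window chr10:22820094-22820393, all printed on the minus strand, 5′ to 3′.
Tbx18: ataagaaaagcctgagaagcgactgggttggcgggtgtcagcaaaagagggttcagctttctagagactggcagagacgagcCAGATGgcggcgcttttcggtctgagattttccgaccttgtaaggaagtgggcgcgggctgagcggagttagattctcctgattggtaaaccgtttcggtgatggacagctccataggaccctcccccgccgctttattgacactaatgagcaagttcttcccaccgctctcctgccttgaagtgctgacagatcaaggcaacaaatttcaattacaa
Tbx20: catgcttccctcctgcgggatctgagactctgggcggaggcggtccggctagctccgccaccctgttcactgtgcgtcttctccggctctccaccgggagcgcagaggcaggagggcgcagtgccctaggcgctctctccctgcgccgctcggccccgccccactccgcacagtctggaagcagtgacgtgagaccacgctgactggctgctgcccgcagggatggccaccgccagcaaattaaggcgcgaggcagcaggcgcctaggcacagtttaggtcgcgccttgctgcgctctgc
Tcf21: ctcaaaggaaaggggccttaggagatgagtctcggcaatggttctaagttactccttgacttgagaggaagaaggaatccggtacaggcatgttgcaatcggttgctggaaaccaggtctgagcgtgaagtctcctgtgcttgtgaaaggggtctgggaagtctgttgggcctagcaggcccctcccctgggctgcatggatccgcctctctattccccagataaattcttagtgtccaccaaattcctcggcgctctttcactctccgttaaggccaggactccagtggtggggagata
The Tbx18 window held 1 E-box and the other windows 0, beside 72.3% of 32851 RefSeq windows of the same length with at least 1. The T-box core GGTGTGA, searched on both strands, was in none of the 3 windows and in 3.98% of all windows. The CG dinucleotide occurred 15 times in the Tbx18 window, 26 times in that of Tbx20 and 8 times in that of Tcf21, and the median window held 7. A match describes the letters only.

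Of 44766 barcodes, 37323 cells had at least 500 genes and at most 10% mitochondrial UMIs, and 21727 of these (58.2%) took a class. The median number of UMIs per kept cell was 1408, 10858 and 8977 in the sham, infarct and peri-infarct hearts, and 3374, 26159 and 2944 in the brain libraries in the same order. Depth was thus higher in both injured hearts and in the brain infarct than in sham, and slightly lower in the brain peri-infarct library. Its part in the differences below was not tested beyond the values with each cell thinned to 1000 UMIs. Thinned shares come from 1 random draw and thinned ratios from a separate one, so both carry drawing error, and the value expected over all draws is given where it matters. Pairs of libraries shared between 24 and 204 barcodes, and 0.971% to 6.05% of the gated cells of a library carried a barcode found in another one. Fibroblast genes in Cdh5-gated heart cells gave an estimated free RNA share of 24.1%, 16.5% and 13.1% for the sham, infarct and peri-infarct libraries. With 1 library per group there is no replicate and no test between conditions. The 95% intervals are exact Poisson intervals for levels and exact Clopper-Pearson intervals for shares, and they cover counting error only.

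The gates were checked on markers other than the gate genes. Heart pericyte-like, smooth-muscle-like, endothelial-like and mesothelial-like cells had every other marker of their panel, 5 for pericytes and 6 for the rest, at least 2-fold above all kept cells in all 3 libraries. Heart Col1a1-gated cells had their own panel highest, but 0, 0 and 2 of 6 fibroblast markers at 2-fold. The sham heart held 1 leukocyte-gated cell, so that class is described in the injured heart only. Brain pericyte-like cells had 4 of 5 markers and smooth-muscle-like cells 6 of 6 at 2-fold. Brain Cdh5-gated cells had 6, 5 and 6 of 6 other endothelial markers at 2-fold in sham, infarct and peri-infarct cells, but they also held genes of other cells: in the infarct Pecam1 was at 36.0, Dcn at 2795 and Col1a1 at 3248 CPM (UMIs per 1000000 UMIs), and the arachnoid gene Ptgds was at 13564 CPM in sham and 24210 in peri-infarct. Brain Msln-gated cells held no Upk3b and at most 1 of 6 mesothelial markers at 2-fold. Both are called by their gate below, as are the brain Col1a1-gated cells, whose makeup is given beside their values.

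Tbx18 in the heart was highest in mesothelial-like cells, second in pericyte-like cells and lowest in endothelial-like cells and leukocytes. Mesothelial-like cells held 79.8 CPM in sham (62.0 to 101), 79.8 in infarct (73.5 to 86.4) and 99.6 in peri-infarct (91.7 to 108). Pericyte-like cells held 36.6 CPM (25.9 to 50.2), 34.9 (30.6 to 39.8) and 37.6 (32.3 to 43.5) in the same order. The mesothelial intervals lay above the pericyte intervals in each library. Smooth-muscle-like cells held 25.2, 25.2 and 28.6 CPM and fibroblast-like cells 24.9, 21.8 and 25.7 CPM, with intervals that overlapped each other in each library. The pericyte-like interval overlapped the smooth-muscle-like one in sham and peri-infarct, and lay just above it in infarct. Endothelial-like cells held 11.6, 10.9 and 4.90 CPM, and leukocyte-like cells 5.40 in infarct and 3.09 in peri-infarct. Mesothelial-like cells stayed highest and pericyte-like cells second in all 3 heart libraries under 15 of 15 other ways of gating, filtering or scaling.

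**Figure D1:**
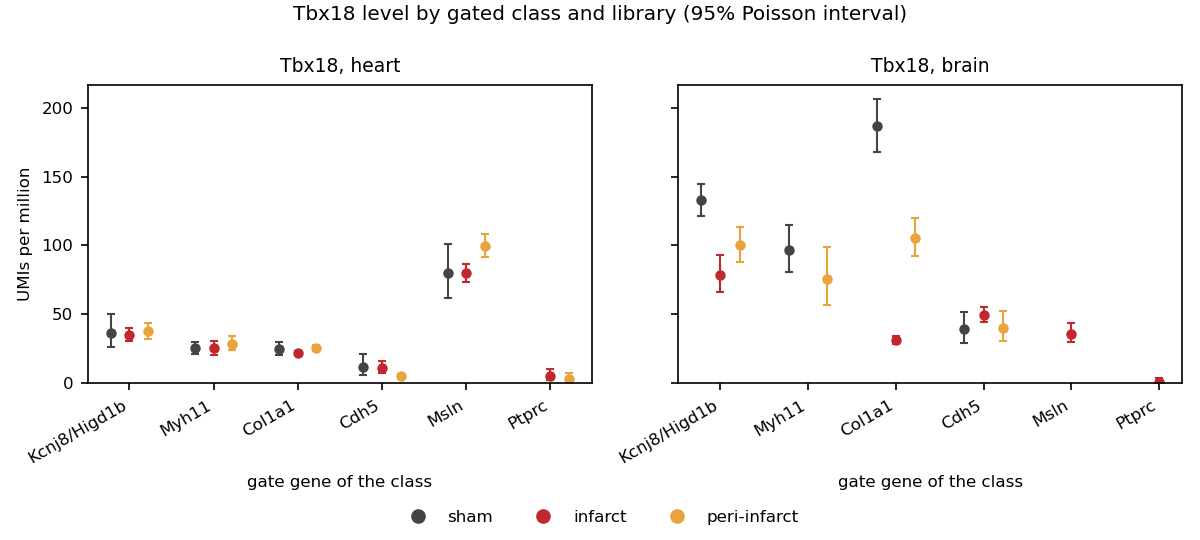
Tbx18 level in CPM of each class (y axis, linear) by gate gene (x axis), with heart libraries on the left and brain libraries on the right; points are the libraries (sham grey, infarct red, peri-infarct orange) and bars are 95% Poisson counting intervals. The Msln gate is highest in the heart at 79.8 to 99.6 CPM, and in the brain the Col1a1 gate spans 31.2 to 186.7 CPM.

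The share of cells with a Tbx18 UMI, after each cell was thinned to 1000 UMIs, also put mesothelial-like above pericyte-like cells. Mesothelial-like shares were 6.49%, 6.52% and 12.2% in sham, infarct and peri-infarct, and the shares were 3.67%, 3.44% and 4.10% in pericyte-like cells. Expected over all draws, they were 6.30%, 8.12% and 10.4% in mesothelial-like and 3.81%, 3.75% and 4.15% in pericyte-like cells. In endothelial-like cells, which serve as the background, the share was 0.544%, 0.791% and 0.198%. The sham endothelial share rests on 1 cell and each of the others on 2. Expected over all draws, these background shares were 1.87%, 0.874% and 0.309%, beside 2.625%, 2.42% and 2.73% in smooth-muscle-like and 2.61%, 2.19% and 2.48% in fibroblast-like cells. In infarct leukocyte-like cells it was 0 of 164 cells, with an exact upper limit of 2.22%, and 8 of these cells (4.88%) held a Tbx18 UMI before thinning. The share expected in peri-infarct leukocyte-like cells was 0.335%. Without thinning the mesothelial-like shares were 12.4%, 64.4% and 79.2% at median depths of 1526.5, 18192 and 20128 UMIs, so at this depth most mesothelial-like cells of the injured heart showed at least 1 Tbx18 UMI. The unthinned endothelial-like shares were 5.24%, 7.91% and 3.76% at median depths of 2647, 6636 and 7145 UMIs.

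Counted over all kept cells, the Tbx18 UMIs of the heart were spread widely. The mesothelial-like share of the Tbx18 UMIs was 11.2%, 21.5% and 23.9% for sham, infarct and peri-infarct hearts, beside 3.62%, 7.13% and 6.71% of all UMIs. Fibroblast-like cells held 21.0%, 34.3% and 23.8%, beside 21.9%, 41.7% and 25.9% of all UMIs. The fibroblast-like share was thus near the class's share of all UMIs in sham. In infarct and peri-infarct it was below that share, with intervals of 32.55% to 36.1% and 22.1% to 25.5%. The level of the whole library was 25.9, 26.4 and 28.0 CPM. The mesothelial-like share was about 3 times the class's share of all UMIs. Smooth-muscle-like cells held 24.1% in sham, beside 24.8% of all UMIs. Cells that met no gate held 24.6%, 25.8% and 32.5% of the Tbx18 UMIs at 22.0, 20.7 and 24.5 CPM.

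**Figure D2:**
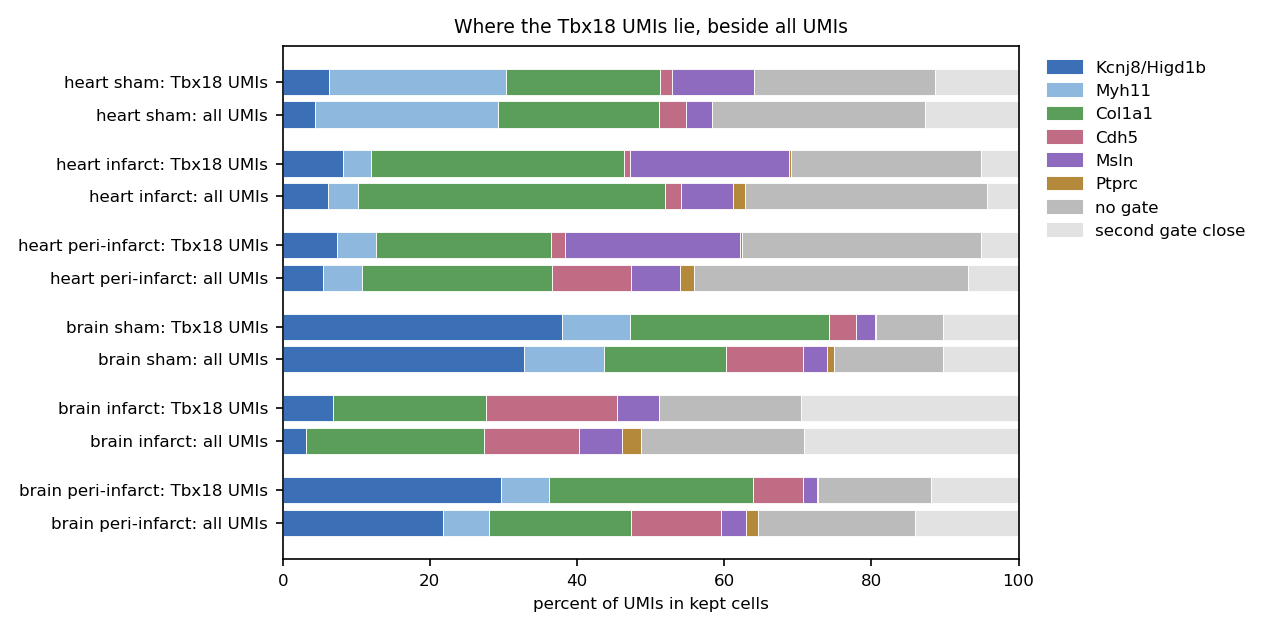
Percent of the UMIs in kept cells (x axis, linear, 0 to 100) that lay in each gated class, in cells that met no gate and in cells with a close second gate (colours), with a pair of bars for each of the 6 libraries: Tbx18 UMIs above, all UMIs below. The Msln segment of the heart Tbx18 bars is 11.2%, 21.5% and 23.9%, against 3.62%, 7.13% and 6.71% of all UMIs.

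Tbx18 in the heart was near its sham level after infarction in pericyte-like, smooth-muscle-like, fibroblast-like and mesothelial-like cells. In these 4 classes the log2 ratio to sham, taken on CPM plus 1, ran from -0.18 in infarct fibroblast-like cells to 0.32 in peri-infarct mesothelial-like cells, and none reached 2-fold. In endothelial-like cells, the background, it was -0.08 in infarct and -1.09 in peri-infarct, the latter below the minimum mean of 10 CPM. The mesothelial-like value depended on how cells were weighted: with each cell counted equally the log2 ratio was 0.54 in infarct and 0.92 in peri-infarct, and without the 5% of cells with the most UMIs 0.67 and 1.20. Thinning to 1000 UMIs gave 0.42 and 0.80 as the values expected over all draws, whereas the 1 draw, with 19 Tbx18 UMIs in 339 sham cells, gave 0.71 and 1.01. In pericyte-like cells the expected infarct value was 0.01, against -0.70 in the 1 draw, which held 27 Tbx18 UMIs in sham where 18.7 were expected.

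Tbx18 levels in the brain libraries were above those of the heart in the pericyte-like class of each group, though organ and library cannot be told apart. Brain pericyte-like cells held 132.7 CPM in sham (121.5 to 144.5), 78.7 in infarct (65.9 to 93.2) and 100 in peri-infarct (87.9 to 113). Smooth-muscle-like cells held 96.7 CPM in sham (80.6 to 115) and 75.8 in peri-infarct (57.0 to 98.9). The infarct core held 4 such cells with 1 Tbx18 UMI. Col1a1-gated cells held 186.7 CPM in sham (168 to 207), 31.2 in infarct (28.3 to 34.4) and 105.3 in peri-infarct (92.1 to 120). The order of classes thus differed by library: Col1a1-gated cells were highest in sham, pericyte-like cells in infarct, and the intervals of both overlapped in peri-infarct.

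After thinning, 12.8%, 11.9% and 10.5% of brain pericyte-like cells held a Tbx18 UMI in sham, infarct and peri-infarct, and the share of Col1a1-gated cells was 20.5%, 2.96% and 13.6%. Expected over all draws, the pericyte-like shares were 12.1%, 8.96% and 9.98% and the Col1a1-gated shares 21.0%, 3.69% and 14.7%. The pericyte-like intervals overlapped among the 3 libraries, from 11.0% to 14.8% in sham, 8.81% to 15.5% in infarct and 8.63% to 12.6% in peri-infarct. Cdh5-gated cells held 39.4, 49.6 and 40.4 CPM of Tbx18, with thinned shares of 1.77%, 4.39% and 2.98%, and, as given above, they also held arachnoid or fibroblast genes. Msln-gated cells held 36.0 CPM in infarct, from 71 cells, and 37 and 16 Tbx18 UMIs in the 38 cells each of sham and peri-infarct. Infarct leukocyte-like cells held 1 Tbx18 UMI in 66 cells at a median of 20433 UMIs. After thinning 0 of 66 cells held Tbx18, with an approximate upper limit of 4.55%, taken as 3 over the number of cells. Pericyte-like cells held 38.0% of the Tbx18 UMIs of the sham brain, 6.78% of the infarct core and 29.7% of the peri-infarct area, beside 32.8%, 3.12% and 21.8% of all UMIs.

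Relative to sham, Tbx18 was lower in the infarct core in pericyte-like and Col1a1-gated brain cells. It was not lower in Cdh5-gated cells, with a log2 ratio of 0.32 in infarct (0.933 to 1.73 times sham) and 0.03 in peri-infarct. In Col1a1-gated cells the log2 ratio was -2.54, or 5.98-fold lower (5.18 to 6.90), and this passed 2-fold, as did 42.1% of all genes tested in that comparison, whose median log2 ratio was -0.52. With TMM scaling factors the Tbx18 log2 ratio was smaller in size but still past 2-fold. In pericyte-like cells it was -0.75, or 1.69-fold lower (1.39 to 2.06), short of 2-fold, which 11.3% of genes reached. The pericyte-like log2 ratio was -0.35 with cells classed by marker panels and -0.38 with each cell counted equally, and -0.44 was expected after thinning. In the peri-infarct area the log2 ratio was -0.82 in Col1a1-gated, -0.40 in pericyte-like and -0.35 in smooth-muscle-like cells, all 3 short of 2-fold, beside 7.89%, 1.78% and 5.37% of genes past it. The interval of the smooth-muscle-like fold reached past equality (0.921 to 1.79-fold lower). The Col1a1-gated peri-infarct value was -0.49 without shared barcodes, -0.50 with each cell counted equally, and after thinning -0.38 in the 1 draw and -0.47 over all draws.

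The brain Col1a1-gated cells differed in makeup between libraries. The summed level of 3 arachnoid markers (Slc47a1, Ptgds, Crabp2) was 31453 CPM in sham cells, 170 after infarct and 20803 in peri-infarct cells, with Ptgds alone, a prostaglandin D synthase, at 30746, 14.5 and 20134 CPM. Col1a1 itself was at 1820, 10443 and 2491 CPM and the fibroblast receptor gene Pdgfra at 372, 57.3 and 193 CPM. None of the 6 other fibroblast markers was 2-fold up over all kept cells in the infarct, against 5 in sham and 5 in peri-infarct. Median depth was 5911.5, 34876 and 7108.5 UMIs. Tbx18 moved with the arachnoid markers and Pdgfra across these 3 libraries, and their part in the Tbx18 difference was not tested. Infarct pericyte-like cells likewise held more Col1a1 (725 CPM against 3.04 in sham) and Dcn (365 against 40.8).

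Within a library, Tbx18 was higher in pericyte-like than in fibroblast-like cells of the heart by a log2 ratio of 0.54, 0.66 and 0.53 and than in smooth-muscle-like cells by 0.52, 0.46 and 0.38, always short of 2-fold. In the brain infarct it was 2.52-fold higher in pericyte-like than in Col1a1-gated cells (2.06 to 3.07), while the log2 ratio was -0.49 in sham and -0.07 in peri-infarct. Against brain smooth-muscle-like cells it was 0.45 in sham and 0.40 in peri-infarct. The share of all genes tested that passed 2-fold between brain pericyte-like and Col1a1-gated cells was 27.3%, 38.7% and 35.4% across the 3 brain libraries (sham, infarct core, peri-infarct), and against smooth-muscle-like cells 22.1% in sham and 27.3% in peri-infarct.

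Among the gated heart classes, Tbx20 was highest in fibroblast-like cells, and pericyte-like cells came second in all 3 libraries. Fibroblast-like cells held 196 CPM in sham (184 to 208), 185 in infarct (181 to 189) and 271 in peri-infarct (264 to 278), and pericyte-like cells 121, 119 and 172 CPM. Smooth-muscle-like cells held 90.7, 78.4 and 97.5 CPM, endothelial-like cells 41.7, 33.5 and 36.7, and leukocyte-like cells 22.8 and 33.4 in the injured heart. The fibroblast-like interval lay above that of each other described class in each library. Thinned shares of cells with a Tbx20 UMI were 16.8%, 17.2% and 23.2% in fibroblast-like cells and 6.52%, 0.791% and 2.08% in endothelial-like cells. Cells that met no gate held 158.7, 225.7 and 355.4 CPM of Tbx20, above fibroblast-like cells in both injured libraries. Their share of the Tbx20 UMIs was 33.2%, 44.1% and 57.5%, beside 30.9%, 45.7% and 30.45% in fibroblast-like cells.

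Among the gated classes, Tcf21 was also highest in fibroblast-like cells. They held 194.8 CPM in sham (183 to 207), 86.4 in infarct (83.7 to 89.2) and 128.1 in peri-infarct (123.5 to 132.9). Pericyte-like cells held 103, 38.9 and 54.8 CPM, smooth-muscle-like cells 86.1, 27.5 and 58.1, and mesothelial-like cells 75.1, 15.9 and 15.8. Endothelial-like cells held 32.4, 11.3 and 20.9 CPM and leukocyte-like cells 12.0 and 6.80. Tcf21 was thus lower in both injured libraries than in sham in each of these classes with a sham value. In fibroblast-like cells the thinned share with a Tcf21 UMI was 16.6%, 8.46% and 13.0%, and in endothelial-like cells 4.89%, 0.791% and 1.19%. Cells that met no gate held 163.2, 105.3 and 183.6 CPM of Tcf21, above fibroblast-like cells in both injured libraries. Their share of the Tcf21 UMIs was 34.1%, 45.1% and 59.6%, beside 30.8%, 46.8% and 28.9% in fibroblast-like cells.

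**Figure D3:**
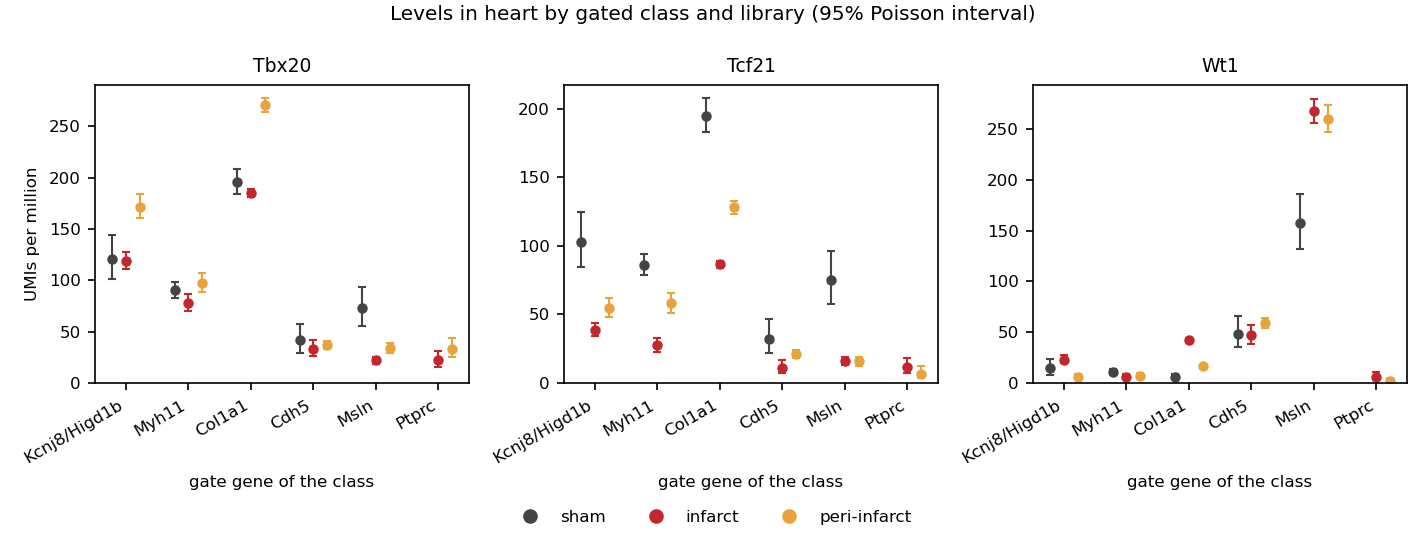
Levels of Tbx20, Tcf21 and Wt1 in the heart in CPM of each class (y axis, linear, 1 panel a gene) by gate gene (x axis), with sham grey, infarct red and peri-infarct orange and 95% Poisson counting intervals. Tbx20 and Tcf21 are highest at the Col1a1 gate (185 to 271 and 86.4 to 194.8 CPM) and Wt1 at the Msln gate (157 to 268 CPM).

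Because fibroblast genes were also found in Cdh5-gated heart cells, Tbx20 and Tcf21 were set against Dcn, an abundant matrix gene of fibroblasts. These genes gave the free RNA estimate above, and whether that RNA was free was not tested. Per 1000 Dcn UMIs, Tbx20 in pericyte-like cells was at 19.6, 80.3 and 72.2 (sham, infarct, peri-infarct), beside 13.5, 28.7 and 25.7 in fibroblast-like cells and 15.5, 28.6 and 26.7 in all kept cells. Smooth-muscle-like cells were at 19.8, 57.7 and 35.6 and endothelial-like cells at 22.4, 39.1 and 34.9, so the ratio was above that of the library in all 3 of these classes, and after injury most of all in pericyte-like cells. Leukocyte-like cells were at 27.8 in infarct and 37.5 in peri-infarct, the latter also above the library ratio. Whether Tbx20 in any of these classes came from the cells themselves was not tested. After injury Dcn itself was at 1486 and 2378 CPM in pericyte-like cells, against 6187 in sham. Tcf21 in pericyte-like cells was at 16.6, 26.2 and 23.1 per 1000 Dcn UMIs, beside 15.5, 13.0 and 13.3 in all kept cells. In mesothelial-like cells both genes were below the library ratio, with Tbx20 at 9.29, 4.59 and 7.21 and Tcf21 at 9.59, 3.28 and 3.37. With the estimated free RNA subtracted, Tbx20 in pericyte-like cells was at 119.9, 109.7 and 164.9 CPM, and in mesothelial-like cells at 56.1, 0 and 6.11 CPM.

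**Figure D4:**
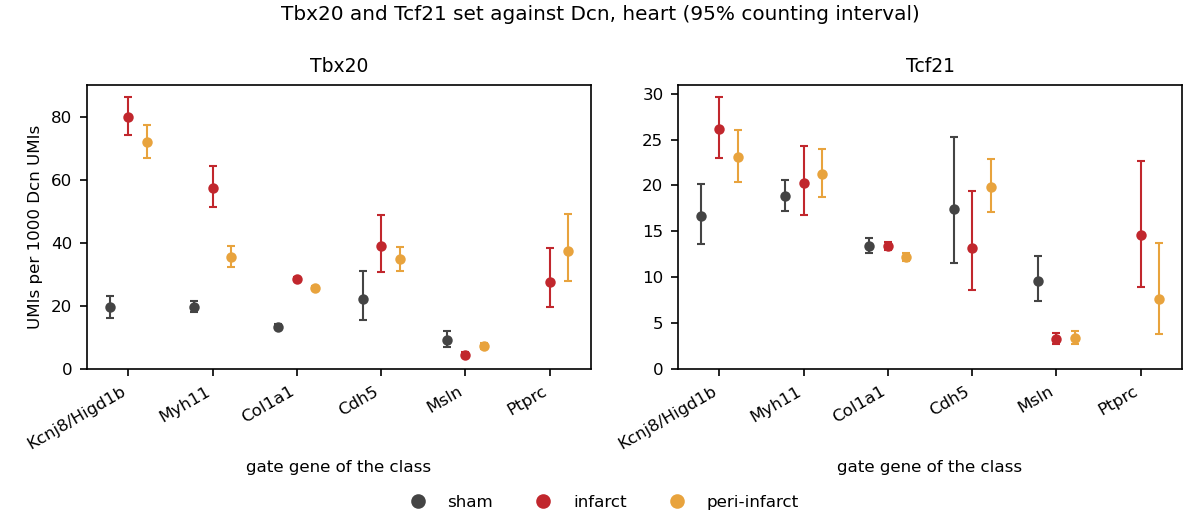
UMIs of Tbx20 and Tcf21 per 1000 Dcn UMIs (y axis, linear, 1 panel a gene) in heart classes by gate gene (x axis), with sham grey, infarct red, peri-infarct orange and 95% counting intervals. Tbx20 at the pericyte gate stands at 80.3 in infarct and 72.2 in peri-infarct, against 28.6 and 26.7 in all kept cells.

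Counted over the 4 genes, 1 passed 2-fold against sham in infarct pericyte-like cells (Tcf21 lower) beside 13.6% of all genes tested. In smooth-muscle-like cells it was 1 of 3 tested (Tcf21 lower) beside 10.6%, in fibroblast-like cells 2 of 4 (Tcf21 lower, Wt1 higher) beside 14%, and in mesothelial-like cells 2 of 4 (Tbx20 and Tcf21 lower) beside 22.5%. In peri-infarct cells it was 1 of 4 in pericyte-like cells (Wt1 lower) beside 11.2%, 0 of 3 in smooth-muscle-like cells beside 4.65%, 1 of 4 in fibroblast-like cells (Wt1 higher) beside 9.6% and 2 of 4 in mesothelial-like cells (Tbx20 and Tcf21 lower) beside 21.7%. The peri-infarct Wt1 call in pericyte-like cells rests on 30 UMIs against 15 in sham (1.16 to 4.44-fold lower). With so few genes, these counts describe the members only. Tested means a mean of at least 10 CPM and at least 20 UMIs in the pair, which Wt1 in smooth-muscle-like cells did not reach.

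**Figure D5:**
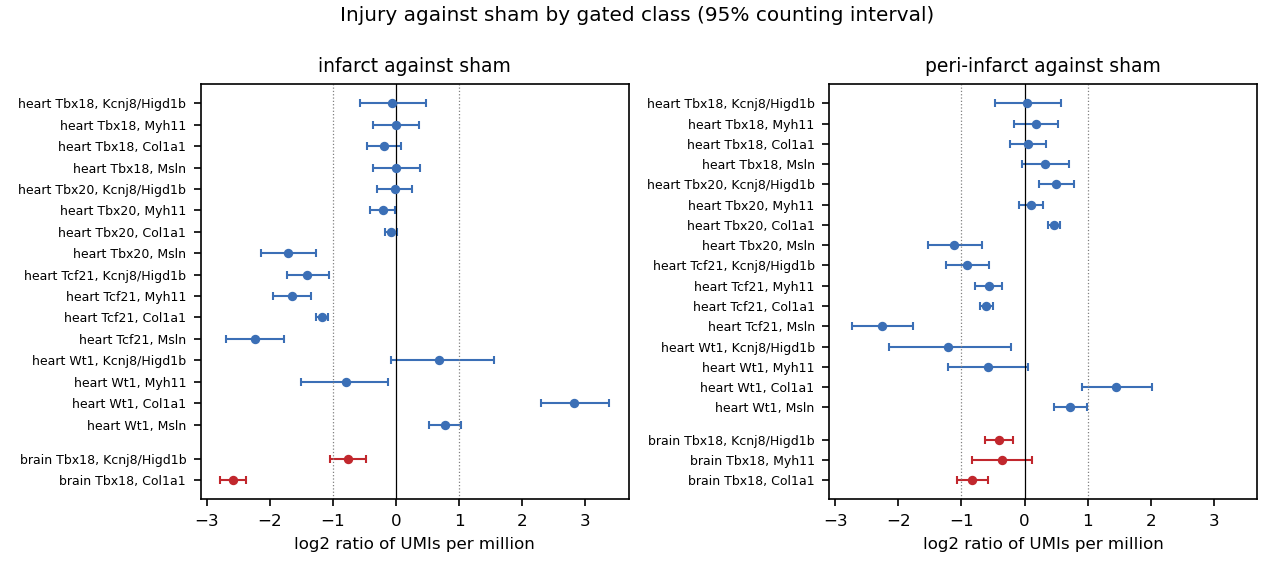
Log2 of the fold between each injured library and the sham library of its organ (x axis, no pseudocount) for the 4 genes in heart classes (blue) and Tbx18 in brain classes (red), with 95% counting intervals and dotted lines at 2-fold. Heart Tbx18 lies between the dotted lines in all 4 classes, Tcf21 lies below them in all 4 infarct classes, and Wt1 in infarct fibroblast-like cells lies 7.04-fold above sham.

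Of the 4 genes, Tcf21 was lower than sham past 2-fold in all 4 infarct heart classes. It was 2.65-fold lower in pericyte-like cells (2.09 to 3.33), 3.13-fold lower in smooth-muscle-like cells (2.55 to 3.86), 2.25-fold lower in fibroblast-like cells (2.10 to 2.42) and 4.72-fold lower in mesothelial-like cells (3.43 to 6.45). With free RNA subtracted, the log2 ratios were -1.57, -1.98, -1.28 and -3.58 in the same order. In endothelial-like cells, whose Tcf21 served as background, it was also lower, by 2.87-fold (1.62 to 5.09), and the part of the background in the other classes was not tested. In peri-infarct cells Tcf21 was past 2-fold in mesothelial-like cells alone (4.77-fold lower, 3.41 to 6.63), with log2 ratios of -0.90, -0.56 and -0.60 in pericyte-like, smooth-muscle-like and fibroblast-like cells. Both injury comparisons share the sham library. Between the injured libraries, the Tcf21 log2 ratio of infarct to peri-infarct was -1.05 in smooth-muscle-like, -0.56 in fibroblast-like and 0.01 in mesothelial-like cells.

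Tbx20 stayed within 2-fold of sham in pericyte-like, smooth-muscle-like and fibroblast-like cells, with log2 ratios of -0.02, -0.21 and -0.08 in infarct and 0.50, 0.10 and 0.46 in peri-infarct. In mesothelial-like cells it was 3.27-fold lower in infarct (2.40 to 4.40) and 2.16-fold lower in peri-infarct (1.60 to 2.88). Expected over all thinning draws, the peri-infarct log2 ratio was -1.08. The 1 draw gave 0.12, with 18 peri-infarct UMIs where 8.38 were expected, while the separate draw for the shares gave 6.49% of sham and 3.92% of peri-infarct cells with a Tbx20 UMI. Dcn in mesothelial-like cells was at 7830 CPM in sham and 4852 and 4673 CPM after injury, and its part in the Tbx20 and Tcf21 values was not tested.

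Wt1 in the heart was highest in mesothelial-like cells, with 157 CPM in sham (132 to 186), 268 in infarct (256 to 280) and 260 in peri-infarct (247 to 274). These cells held 31.2%, 35.3% and 50.7% of all Wt1 UMIs, beside 3.62%, 7.13% and 6.71% of the UMIs of all genes. Fibroblast-like cells held 7.21%, 32.6% and 12.3% of the Wt1 UMIs, beside 21.9%, 41.7% and 25.9%. Endothelial-like cells came second in level, at 48.7, 47.0 and 59.2 CPM. In infarct their interval overlapped that of fibroblast-like cells, at 42.4 CPM. In endothelial-like cells the epicardial gene Upk3b, a uroplakin of mesothelium, was at 12.8, 1.31 and 0.75 CPM. With free RNA subtracted, endothelial-like Wt1 was at 57.9, 45.5 and 63.1 CPM. After thinning, 35.8, 51.0 and 64.0 CPM were expected over all draws in these cells, and the 1 draw gave 27.2 in sham. In mesothelial-like cells the injury ratios were short of 2-fold, at 1.70-fold higher in infarct (1.43 to 2.05) and 1.66-fold higher in peri-infarct, or log2 ratios of 0.77 and 0.72. They reached 2-fold under some settings: 1.32 and 1.21 without the 5% of cells with the most UMIs, and 1.09 and 1.02 expected over all thinning draws. With each cell counted equally the infarct value was 1.07 and the peri-infarct value was also just past 2-fold. In infarct cells the log2 ratio was also 1.01 with the gate at 1 UMI and 1.15 in the 1 thinning draw.

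Wt1 in fibroblast-like cells was at 6.02 CPM in sham (4.09 to 8.55), 42.4 in infarct (40.5 to 44.4) and 16.4 in peri-infarct (14.8 to 18.2). The infarct level was 7.04-fold above sham (4.94 to 10.4) and 2.58-fold above peri-infarct (2.31 to 2.90), and the peri-infarct level 2.73-fold above sham (1.89 to 4.07). In infarct, 434 of 3026 fibroblast-like cells (14.3%) held a Wt1 UMI, against 28 of 2617 (1.07%) in the shallower sham library, and after thinning the shares were 2.45% and 0.440%. The log2 ratio of infarct to sham was 2.63. After thinning, 2.45 was expected over all draws, and the 1 draw, with 19 sham UMIs where 11.6 were expected, gave 1.78. Without thinning, a Wt1 UMI was found in 5.71% of the infarct fibroblast-like cells with a Tbx20 UMI and in 43.3% of those without one. Of the mesothelial genes, Upk3b in fibroblast-like cells was at 35.4, 1.23 and 1.10 CPM, and the keratin gene Krt19 at 16.7, 1.97 and 2.94 CPM. In infarct against sham, 4 of 8 epicardial and mesothelial genes tested were past 2-fold lower and 0 higher. Krt19 was below the minimum mean of 10 CPM. Of all genes tested, 7.68% were lower and 6.28% higher. The part of mesothelial RNA in the fibroblast-like Wt1 values was not tested. The noncoding neighbour Wt1os stood at 0.39, 2.77 and 0.97 CPM.

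Wt1 in pericyte-like cells was at 14.4, 23.2 and 6.23 CPM, and in smooth-muscle-like cells at 11.0, 6.30 and 7.37 CPM. In infarct pericyte-like cells, 152 Wt1 UMIs came from 42 of 1017 cells. These sums also held mesothelial genes, with Krt19 at 18.2, Nkain4 at 25.8 and C3, a complement gene that mesothelial-like cells held at 3398 CPM, at 249.8 CPM. In peri-infarct pericyte-like cells the same 3 genes were at 0.62, 0.21 and 58.4 CPM. Against sham, 0 of 11 epicardial and mesothelial genes tested were past 2-fold higher in infarct pericyte-like cells. Lower past 2-fold were 3 (Upk3b, Aldh1a1 and Podxl), and the median log2 ratio was -0.17. Of all genes tested, 6.64% were higher and 6.99% lower. The part of mesothelial RNA in the pericyte-like Wt1 values was not tested.

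Between classes of the same heart library, pericyte-like cells held less Tcf21 than fibroblast-like cells, with log2 ratios of -0.91, -1.13 and -1.21 for sham, infarct and peri-infarct. Tbx20 was lower by a steady -0.69, -0.63 and -0.65. Wt1 had no common direction, at 1.14, -0.84 and -1.27. Its sham value rests on 15 against 31 UMIs (1.20 to 4.58-fold higher). Past 2-fold were thus 1 of 4 genes in sham (Wt1 higher) beside 7.88% of all genes, 1 of 4 in infarct (Tcf21 lower) beside 14.4%, and 2 of 4 in peri-infarct (Tcf21 and Wt1 lower) beside 16.4%. Against smooth-muscle-like cells none passed in sham, beside 4.79%, or in peri-infarct, beside 11.6%, and in infarct 1 passed (Wt1, log2 ratio 1.73) beside 8.73%. With classes drawn from marker panels, that Wt1 value was -0.59.

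Tbx20 and Tcf21 were all but undetected in the brain. Tbx20 had 1 UMI, in a sham pericyte-like cell, and 0 UMIs in the other 2 libraries. The exact upper limits there were 0.0681 CPM in infarct and 0.327 in peri-infarct. Tcf21 had 1 UMI, in a peri-infarct Col1a1-gated cell, and 0 in sham and infarct. Wt1 had 31 UMIs, all in the infarct library, of which 11 were in Col1a1-gated cells (0.841 CPM). It had 0 in sham and peri-infarct, with exact upper limits of 0.3065 and 0.327 CPM.

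Among the other 15 T-box genes, Tbx2 and Tbx3, both repressors, were the most abundant. Tbx2 in pericyte-like cells was at 93.3, 93.9 and 113 CPM in sham, infarct and peri-infarct heart and at 241.5, 262 and 288 CPM in the brain. Fibroblast-like heart cells held 42.5, 8.55 and 9.52 CPM and brain Col1a1-gated cells 3.01, 2.14 and 1.38 CPM. Tbx3 in pericyte-like cells was at 50.04, 51.2 and 51.7 CPM in heart and 256.4, 176.3 and 204.2 CPM in brain. Both were past 2-fold higher in pericyte-like than in fibroblast-like cells in all 3 heart libraries, as 2 of 3 T-box genes tested, beside 5.28%, 8.03% and 9.16% of all genes higher past 2-fold. In the brain 3 of 5 were in sham and peri-infarct (with Tbx6), beside 13.8% and 22.3% of all genes, and 3 of 4 in infarct (with Mga), beside 28.9%. In mesothelial-like heart cells both were lower than sham after infarction, Tbx2 at 2.92 against 42.2 CPM and Tbx3 at 1.32 against 23.5 CPM, so 0 of 3 T-box genes were higher and 2 lower, beside 8.71% and 13.8% of all genes.

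Of 17 epicardial and mesothelial genes, 16 could be tested in mesothelial-like cells of the infarct against sham, where 4 were past 2-fold higher (Upk1b, Krt8, Krt18 and Wt1os), 1 was lower (Sulf1), beside 8.71% of all genes higher and 13.8% lower, and the median log2 ratio was 0.15 beside -0.08 for all genes tested. Upk3b was at 1294, 767 and 1080 CPM there and Krt19 at 519, 759 and 1012 CPM. In infarct fibroblast-like cells 0 of 8 were higher and 4 lower (Upk3b, Aldh1a1, Gpm6a and Nkain4), beside 6.28% of all genes higher and 7.68% lower, with a median of -0.61 beside -0.03. Of 18 transcription factors of the epicardial lineage and of epithelial-mesenchymal transition, 17 were tested in infarct mesothelial-like cells, of which 2 were higher (Gata6 and Osr1) and 6 lower (Snai2, Zeb1, Zeb2, Nr2f1, Nr2f2 and Sox9), with a median of -0.06, against the same background shares. Gata6, a zinc finger factor of the heart and mesothelium, was at 148, 310 and 264 CPM in mesothelial-like cells and at most 2.98 CPM in the brain classes. In infarct fibroblast-like cells 2 of 16 were higher (Tead1 and Nfatc1) and 3 lower (Hand2, Nr2f1 and Nr2f2), again beside 6.28% and 7.68% of all genes. In pericyte-like heart cells Prrx1, a mesenchymal homeobox factor, was at 149, 395 and 340 CPM, and Zeb2, a repressor of epithelial genes, at 374, 658 and 566 CPM. The orphan receptor gene Nr2f2 was at 261, 368 and 364 CPM there and at 548, 415 and 571 CPM in brain pericyte-like cells.

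The E proteins, with which Tcf21 pairs to bind DNA, and the Groucho corepressors, which some T-box repressors recruit, were found in heart and brain classes alike. Tcf4 was at 571, 341 and 487 CPM in fibroblast-like and 623, 487 and 644 CPM in pericyte-like heart cells. Tcf12 was at 77.3, 68.6 and 80.6 CPM in fibroblast-like cells and Tcf3 at 27.0, 34.5 and 39.1 CPM. None of the 3 passed 2-fold against sham in either class. In brain Col1a1-gated cells of the infarct, 2 of 3 E proteins (Tcf4 and Tcf12) and 3 of 4 Groucho genes (Tle1, Tle2 and Tle4) were past 2-fold lower than sham, as were 32.5% of all genes, with medians of -1.53 and -2.10 beside -0.52 for all genes. Tle1 was at 95.3, 25.2 and 35.4 CPM, Tle2 at 33.6, 5.89 and 23.9 CPM, Tle3 at 23.1, 13.5 and 26.2 CPM and Tle4 at 70.3, 4.74 and 24.4 CPM in sham, infarct and peri-infarct. The change in makeup of these cells applies to these values as it does to Tbx18.

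Genes with the most similar pattern were ranked by Pearson r of log2(CPM + 5) over 30 class sums, 17 from heart and 13 from brain. These sums share libraries, depth and any free RNA, so r is a description only. For Tbx18 the highest were Nbl1 (0.92), Casc4, Fzd3 and Gpc3 (0.90 each) and Mgat3 (0.89). Over heart sums alone they were Gpc3 (0.96), Ddr1, C1ra, Meis2 and Smim1 (0.95 each), and over brain sums alone Dcbld2 (0.98), Zfp651 (0.97), Zic4 and Foxc1 (0.96 each) and Ctr9 (0.95), so Gpc3 was in the list for all sums and for heart and no gene of these lists was in both organs. Tbx20 was closest to Dpt (0.98), Tcf21, Pi16, Pcsk6 and Arntl. Tcf21 was closest to Pcsk6 (0.98), Pcolce2, Dpt, Tbx20 and Scn7a. Tbx20 and Tcf21 had an r of 0.97 with each other, and of 0.88 over heart sums. Wt1 was closest to Hotairm1 (0.90), Tmc6, Plxna4, Cldn15 and C3 (0.89). Tbx20, Tcf21 and Wt1 were near 0 in all brain sums, so these ranks also follow heart against brain. Over heart sums alone Tbx20 was closest to Lama2 (0.95), Dnm3os, Ank2, Arhgef40 and Pdlim2. Tcf21 was closest there to Entpd2 (0.96), Gstm5, Itih5, Gpm6b and Pam, and Wt1 to Selenoi (0.91), Plekha7, Tspan5, Gbp2 and Zfpm1. The r of Wt1 with Tbx20 was 0.58 over all sums and -0.39 over heart sums, and with Tcf21 0.57 and -0.205. Tbx18 itself had an r of -0.34 with Tbx20, -0.27 with Tcf21 and -0.08 with Wt1 over all sums, and of 0.23, 0.34 and 0.55 over heart sums.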

How the data were processed

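Each library was deposited by the authors as a matrix of UMI counts per gene and barcode, with no normalization. Per the file headers these counts came from Cell Ranger 3.0.2, and the submitters' processing notes also name Seurat 3 and mm10. The rest was computed from these counts with Python 3.11.15, numpy 2.4.6, scipy 1.17.1 and pandas 2.3.3; edgeR 4.0.16 gave scaling factors for 1 alternative. A cell met a gate with at least 2 UMIs of the gate gene. It took the met gate most enriched over the library mean, if that was at least 1 and at least 2-fold above any other met gate. Classes of at least 50 cells were summed and scaled to CPM. No doublet caller was run. Genes at least 2-fold apart between sums were counted. Named genes were the 4 members, the 5 most similar to each, and up to 4 of the most abundant of each of 5 lists. Members and lists were chosen with earlier results of these data known. 16 alternatives were planned. A further 6 were chosen after seeing the data (Dcn ratios, likeness by organ, infarct against peri-infarct, both pericyte genes, no shared barcodes, thinned values expected over all draws), as was the marker check and leaving Cdh5-gated cells out of the counts. The scripts were tested on simulated data.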

Additional observations from a re-analysis of the deposited data

Results flagged for a closer look

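Tbx18 in smooth-muscle-like cells had log2 ratios to sham of 0.0020 in the heart infarct, 0.18 in the heart peri-infarct and -0.35 in the brain peri-infarct library, so the organs had opposite signs. The interval of each fold included equality (0.774 to 1.29 times sham in the heart infarct, 0.892 to 1.45 in the heart peri-infarct and 0.559 to 1.09 in the brain), and after thinning the heart infarct value was -0.37 in the 1 draw and -0.11 over all draws. The difference between organs was not tested, and each value comes from 1 pair of libraries.

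Cells that met no gate held levels of 3 of the genes above those of the same cells in sham. Tbx20 was at 225.7 CPM in infarct and 355.4 in peri-infarct, against 158.7 in sham. Tcf21 was at 183.6 CPM in peri-infarct, against 163.2 in sham, and Wt1 at 37.3 CPM in infarct, against 16.9 in sham. In the other injured library these were lower than in sham, Tcf21 at 105.3 CPM in infarct and Wt1 at 6.84 CPM in peri-infarct. These cells were left out of the class comparisons.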

How the results depend on the processing

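With 1 library per group no replicate can be left out, and no paired analysis was possible because no group has a second library. Of 21 ratios of the 4 genes past 2-fold, 2 changed sign over 354 settings: Tbx20 in peri-infarct mesothelial-like cells, thinned (0.12), and Wt1 in infarct pericyte-like against smooth-muscle-like cells, classed by panels (-0.59). Of 1416 ratios recomputed in all, 232 left their counting interval; those of Tbx18 against sham, and of Tcf21 and Wt1 in infarct fibroblast-like cells, follow, and the cause was not tested. Thinning in 1 draw, separate from that of the shares and resting on few UMIs, gave heart infarct Tbx18 log2 ratios of -0.70 (pericyte-like), -0.37 (smooth-muscle-like), -0.53 (fibroblast-like) and 0.71 (mesothelial-like, 1.01 in peri-infarct), Wt1 in infarct fibroblast-like cells 1.78, and brain peri-infarct Col1a1-gated Tbx18 -0.38. Expected over all draws, Tbx18 was 0.01, -0.11, -0.22 and 0.42 (0.80 in peri-infarct) in those heart classes, -0.47 in the last and -0.44 in brain infarct pericyte-like cells, and infarct fibroblast-like Tcf21 was -1.01. Counting each cell equally gave Tbx18 0.54 (infarct) and 0.92 (peri-infarct) in mesothelial-like, -0.38 in brain infarct pericyte-like and -0.50 in brain peri-infarct Col1a1-gated cells, and Tcf21 -1.03 and Wt1 2.16 in infarct fibroblast-like cells. Leaving out the 5% of cells with the most UMIs gave Tbx18 0.67 and 1.20 in mesothelial-like cells and -2.79 in brain infarct Col1a1-gated cells; for the latter, panels gave -2.26, the highest gate -2.36 and TMM -1.84. Panels gave -0.35 for Tbx18 in brain infarct pericyte-like cells and -1.06 for Tcf21 in infarct fibroblast-like cells, where TMM gave -1.01 and free RNA subtraction -1.28. Wt1 there was 2.10 with a pseudocount of 5 and 3.81 with free RNA subtracted. Without shared barcodes brain peri-infarct Col1a1-gated Tbx18 was -0.49. Tbx18 in brain peri-infarct was highest in Col1a1-gated cells in 11 of 14 settings. Counts of all genes past 2-fold moved by over 1.5 times in 51 of 398 cases, 24 of them with a minimum of 50 CPM, which tests fewer genes (40 to 1318 genes, against 159 to 3675). The free RNA subtraction was not run for the brain. Few UMIs limit heart Tbx18 in sham pericyte-like (38) and endothelial-like cells (10), and Wt1 in sham pericyte-like cells (15).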

Other observations

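Wt1 and Tbx18 were often found in the same mesothelial-like heart cell where depth allowed. Without thinning, both were present in 4.52%, 62.5% and 76.9% of these cells (sham, infarct, peri-infarct), at median depths of 1526.5, 18192 and 20128 UMIs. Wt1, with or without Tbx18, was found in 22.4%, 96.2% and 95.7%. In sham, a Wt1 UMI was found in 36.5% of the mesothelial-like cells with a Tbx18 UMI and 20.4% of the others. These shares were 97.05% and 94.7% in infarct, and 97.0% and 90.6% in peri-infarct. In fibroblast-like cells, a Tbx20 UMI was found in 40.2% of the cells with a Tbx18 UMI and 26.5% of the others in sham, and in 75.8% and 77.4% in infarct. Depth was not matched between these cells, and its part was not tested.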
